A study of Mus musculus with 2 samples.

Results

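Foxp3-positive T cells were examined in single-cell transcriptomes of mouse spleen. They are the cells with at least 1 unique molecular identifier (UMI, which marks 1 captured RNA molecule) of Foxp3, at least 200 detected genes and at most 25% of UMIs from mitochondrial genes. They were chosen by their Foxp3 counts, so their Foxp3 values are a description. Of 26581 cells that passed the filters on genes and mitochondrial UMIs, 128 met the rule. Cells came from 2 libraries. The first was made from LatY136F CD45-KO mice, which carry the LatY136F mutation and also lack CD45, and is called CD45-KO here. The second was made from LatY136F mice, so that both groups share the Lat mutation and no library with normal Lat was included. All mice were 8 to 9 weeks old. Live spleen cells positive for CD3 and CD5 were sorted and loaded on the BD Rhapsody system, which isolates cells in microwells with barcoded beads. How many mice each library pools is not stated in the sources used here.

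Foxp3 encodes a forkhead transcription factor that defines regulatory T cells, which restrain other T cells. Such cells usually carry CD25, the alpha chain of the interleukin-2 receptor (Il2ra), the inhibitory receptor CTLA-4 (Ctla4), GITR (Tnfrsf18) and often the Ikaros family factor Helios (Ikzf2). The Lat mutation removes the docking site of phospholipase C gamma from the adaptor LAT, and mice that carry it are known for a lymphoproliferation of T helper 2 (Th2)-type cells, which use the factor GATA3 and can make interleukin-4. CD45, encoded by Ptprc, is the phosphatase that acts on the Src family kinases of the T cell receptor.

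The CD45-KO library held 12834 kept cells with a median of 1991.5 UMIs, and the LatY136F library 13747 kept cells with a median of 2155 UMIs. The filters removed 11 CD45-KO and 28 LatY136F cells, of which 0 had a Foxp3 UMI. The files shared 223 cell indexes; 2 Foxp3-positive cells carried such an index, and in 0 index pairs were both cells Foxp3-positive. Since each genotype has a single library, differences were not checked in replicates and carry no p-value. The 95% intervals are exact, Clopper-Pearson for shares of cells and conditional binomial for ratios. They cover counting error only, not differences between mice or captures. Those for ratios take each UMI as an independent draw and leave out the spread between cells. Where few cells hold many of the UMIs, they are too narrow. For a count of 0, the limit given is 3 counts of the total; it limits cells with a UMI, not cells that express the gene. Each Foxp3-positive cell was set against the 20 Foxp3-negative cells of the same library nearest in total UMIs, called matched cells, with no cell used more than once. Ratios are log2 ratios of CPM (UMI counts scaled to a total of 1000000), Foxp3-positive over matched, from UMIs summed over cells.

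Foxp3 (ENSMUSG00000039521.13, protein coding, GRCm38 chrX:7573644-7595245, plus strand) overlaps Ccdc22, on the minus strand, over 1437 bases at its 3′ end (chrX:7593809-7595245). Foxp3 also overlaps Ppp1r3f and Gm36995 on the minus strand and Flicr on the plus strand. The sources used here do not state whether the authors' counting used strand. Ccdc22 was detected in 0 of 29 CD45-KO Foxp3-positive cells and in 2 of 99 LatY136F Foxp3-positive cells. The promoters of 4 genes that the results turn on are shown as the RefSeq windows on GRCm38.p6, 250 bases before to 50 after a transcription start. They were searched on both strands for the STAT motif TTCNNNGAA, because interleukin-2 acts through STAT5, and for the forkhead motif GTAAACA, because FOXP3 is a forkhead factor. Capitals mark a match, and the STAT motif is the same pattern on both strands. Foxp3 is shown at the second of its listed starts (chrX:7580233-7580532, plus strand), Il2ra at chr2:11642542-11642841 (plus), Tnfrsf18 at chr4:156026072-156026371 (plus) and the kinase gene Pim1 at the second of its starts (chr17:29492835-29493134, plus).
Foxp3: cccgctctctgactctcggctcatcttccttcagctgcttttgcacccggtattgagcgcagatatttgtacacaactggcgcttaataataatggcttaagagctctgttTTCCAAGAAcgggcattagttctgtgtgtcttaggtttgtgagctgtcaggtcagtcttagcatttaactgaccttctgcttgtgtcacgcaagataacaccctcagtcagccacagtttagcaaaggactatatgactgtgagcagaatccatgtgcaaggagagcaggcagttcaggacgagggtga
Il2ra: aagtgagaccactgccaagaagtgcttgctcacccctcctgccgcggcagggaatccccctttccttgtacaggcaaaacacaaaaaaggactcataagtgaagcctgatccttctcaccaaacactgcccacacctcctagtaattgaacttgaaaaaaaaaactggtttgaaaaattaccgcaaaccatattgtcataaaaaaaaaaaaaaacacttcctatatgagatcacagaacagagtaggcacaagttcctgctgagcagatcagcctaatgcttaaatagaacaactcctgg
Tnfrsf18: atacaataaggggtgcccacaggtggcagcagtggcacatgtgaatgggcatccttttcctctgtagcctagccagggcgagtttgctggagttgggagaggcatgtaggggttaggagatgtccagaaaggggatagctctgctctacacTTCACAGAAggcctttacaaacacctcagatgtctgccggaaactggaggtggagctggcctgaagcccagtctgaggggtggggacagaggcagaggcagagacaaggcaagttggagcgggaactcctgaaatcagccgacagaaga
Pim1: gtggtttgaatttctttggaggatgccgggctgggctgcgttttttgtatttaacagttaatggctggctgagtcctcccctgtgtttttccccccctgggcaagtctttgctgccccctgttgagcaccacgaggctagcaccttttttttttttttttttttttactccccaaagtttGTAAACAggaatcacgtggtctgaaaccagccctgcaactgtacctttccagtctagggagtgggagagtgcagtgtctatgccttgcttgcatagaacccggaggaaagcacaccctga
The Foxp3 and Tnfrsf18 windows hold 1 STAT match each, the Pim1 window holds 1 forkhead match, and the Il2ra window holds neither motif. The windows at the other listed start of Foxp3 and of Pim1, not shown, hold neither motif, so for these 2 genes the start with a match is shown. Windows of Ctla4, Gata3 and Il1rl1 were also searched and are not shown. Those of Ctla4 and Gata3 hold neither motif. Il1rl1 holds 1 forkhead match at the second of its listed starts and neither motif at the first. Of 32851 promoter windows in the table, 8.30% hold the STAT motif and 3.65% the forkhead motif. A match is a run of letters, not a measured binding site.

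Foxp3-positive cells were rare in both libraries and made up a smaller share of the CD45-KO library. They were 29 of 12834 CD45-KO cells, a share of 0.226% (0.151 to 0.324), and 99 of 13747 LatY136F cells, a share of 0.720% (0.586 to 0.876). Summed over kept cells, Foxp3 reached 2.46 CPM in the CD45-KO library (72 UMIs) and 6.29 CPM in the LatY136F library (222 UMIs). After each cell was thinned to 1000 UMIs, 17 of 12475 CD45-KO cells (0.136%) and 61 of 13313 LatY136F cells (0.458%) still held a Foxp3 UMI, so that depth did not reverse the order. With at least 2 Foxp3 UMIs, the rule found 15 CD45-KO cells (0.117%) and 44 LatY136F cells (0.320%). At the threshold itself, 14 of 29 CD45-KO and 55 of 99 LatY136F cells held exactly 1 UMI. The highest count in 1 cell was 9 in the CD45-KO library and 12 in the LatY136F library. Within the Foxp3-positive cells, Foxp3 was at 971 CPM in the CD45-KO library and 752 CPM in the LatY136F library, a log2 ratio of 0.37 (-0.04 to 0.76), from counts that also chose the cells.

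**Figure D1:**
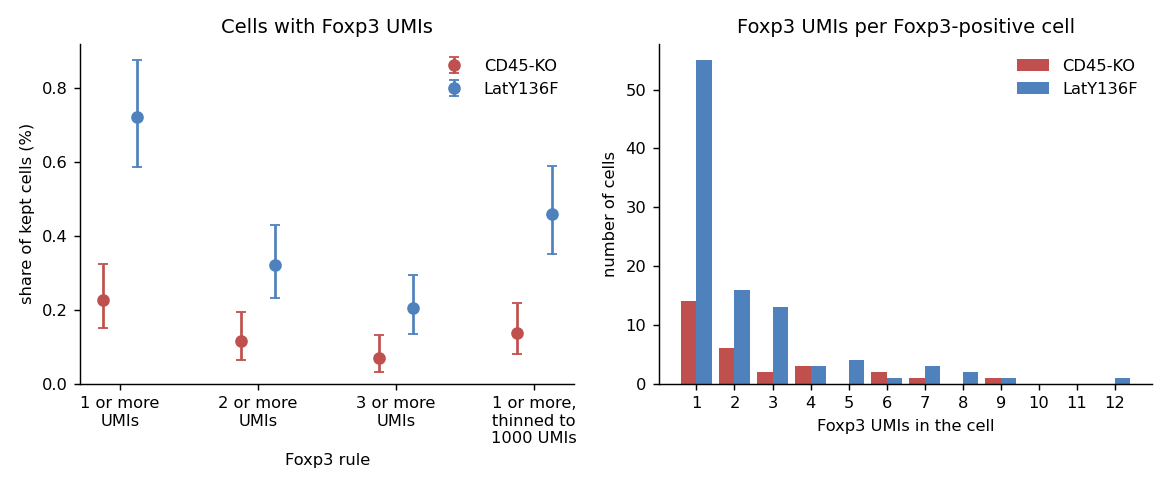
Left, share of kept cells (%) that met each Foxp3 rule in the CD45-KO and LatY136F libraries, with points for shares and bars for exact 95% intervals of counting error. Right, number of Foxp3-positive cells by Foxp3 UMIs. The CD45-KO share is below the LatY136F share under each of the 4 rules, and 14 and 55 cells hold a single UMI.

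As a background for free RNA, 29 B-lineage cells (at least 3 of 8 B cell genes detected; 21 CD45-KO and 8 LatY136F, median 4898 UMIs) were examined. Foxp3 was found in 0 of 29, which at 3 counts allows a share with a UMI of up to 10.3%, so these cells are too few to set a background for shares below 1%. The B-lineage cells, deeper than Foxp3-positive cells (median 2193.5 UMIs), had Il2ra in 3.45%, Ctla4 in 10.3%, Klrg1 in 6.90%, Tnfrsf18 and Ikzf2 in 13.8% each, Il1rl1 in 37.9% and Gata3 in 48.3%. Cd4 was found in 44.8% of them. Doublets were kept, and the part of doublets with T cells in these shares was not tested.

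The Foxp3-positive cells carried T cell transcripts. All 128 held a UMI of a CD3 or T cell receptor constant gene, and all 128 had at least 3 of 14 T cell genes. Cd4, the helper coreceptor, was detected in 55.2% of CD45-KO Foxp3-positive cells against 66.0% of matched cells, and in 61.6% of LatY136F Foxp3-positive cells against 69.1% of matched cells. Cd8a was detected in 0 of 128 cells. An antibody to CD4 was among the stains, per the series' design text, and whether it was used in the sort is not stated in the sources used here. Of 17 B and plasma cell genes, 8 were at 0, including Ms4a1, Pax5 and Jchain. At least 1 of the 17 was nevertheless found in 48 of the 128 cells, against 845 of 2560 matched cells. At least 3 of the 17 were found in 2 cells, 1.56%, against 1.99% of matched cells. Of 14 myeloid genes, 9 were at 0, including Lyz2 and Csf1r, but 74 of the 128 cells held at least 1 of the 14. Their summed level was 445 CPM against 663 CPM in the CD45-KO library and 359 CPM against 364 CPM in the LatY136F library, Foxp3-positive first. Of 13 natural killer genes, 8 were at 0, including Ncr1 and Klrd1, and 23 of the 128 cells held at least 1. Their summed level was 162 CPM against 80.8 CPM in the CD45-KO library and 159 CPM against 122 CPM in the LatY136F library. The CD45-KO level came from 2 of 29 Foxp3-positive cells, and 41 of 580 matched cells held at least 1 of these genes. In the LatY136F library, 21 of 99 Foxp3-positive and 305 of 1980 matched cells did. Foxp3-positive cells spanned 540 to 4196 genes in the CD45-KO library and 587 to 4083 in the LatY136F library. Their mitochondrial share ran from 5.92% to 14.6% and from 5.29% to 14.3%. A T cell receptor beta variable segment was detected in 6 of 29 CD45-KO cells, with 5 segments seen, and in 23 of 99 LatY136F cells, with 6 segments seen. Trbv12-2 was found in 9 of the 128, Trbv13-2 in 8 and Trbv3 in 7, so no single segment marked most cells in which one was read.

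Of the 4 markers besides Foxp3, Il2ra stood highest over matched cells, Ctla4 and Tnfrsf18 were moderately higher, and Ikzf2 was scarcely detected. Il2ra (GRCm38 chr2:11642807-11693193, plus strand) was found in 9 of 29 CD45-KO Foxp3-positive cells, 31.0% (15.3 to 50.8), against 3.97% of matched cells. In the LatY136F library it was found in 17 of 99, 17.2% (10.3 to 26.1), against 8.43% of matched cells. Its level was 270 CPM against 53.0 CPM in the CD45-KO library and 278 CPM against 82.4 CPM in the LatY136F library, Foxp3-positive first in each, and the pooled log2 ratio was 1.85 (1.53 to 2.16). In both libraries Foxp3-positive cells stood above matched cells, in level and in share. One LatY136F cell with 8 Foxp3 UMIs held 36 of the 102 Il2ra UMIs (35.3%), and without it the pooled ratio was 1.31 (0.92 to 1.69). In each library most Foxp3-positive cells had no Il2ra UMI at this depth.

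Tnfrsf18 (chr4:156026164-156028895, plus strand) was detected in 41.4% of CD45-KO Foxp3-positive cells against 29.0% of matched cells, and in 48.5% of LatY136F Foxp3-positive cells against 37.5% of matched cells. Its pooled ratio was 0.56 (0.26 to 0.84). The gene was thus common in the T cells of both libraries and somewhat more so where Foxp3 was detected. Ctla4 (chr1:60887000-60915832, plus strand) was detected in 3 of 29 CD45-KO Foxp3-positive cells, 10.3%, against 8.28% of matched cells. In the LatY136F library it was detected in 26 of 99, 26.3% (17.9 to 36.1), against 12.5% of matched cells. The pooled ratio was 0.84 (0.32 to 1.32), and it was 1.46 with 5 matched cells per Foxp3-positive cell in place of 20. Ctla4 was found in 2 of 21 CD45-KO and 1 of 8 LatY136F B-lineage cells, which are deeper, and the part of free RNA in the CD45-KO share was not tested.

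Ikzf2 (chr1:69531214-69687245, minus strand) was found in few of these cells. It was detected in 1 of 29 CD45-KO Foxp3-positive cells, 3.45%, against 9.31% of matched cells, and in 4 of 99 LatY136F Foxp3-positive cells, 4.04%, against 3.79% of matched cells. The pooled ratio was -0.69 (-2.02 to 0.37) from 7 UMIs in 5 cells. With at least 2 Foxp3 UMIs required, it was 0.51. Ikzf2 was found in 4 of 21 CD45-KO and 0 of 8 LatY136F B-lineage cells. The CD45-KO B-lineage cells are deeper, with a median of 4659 UMIs against 1975 in CD45-KO Foxp3-positive cells. They therefore set no background for the CD45-KO share, and the 8 LatY136F cells are too few to set one.

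**Figure D2:**
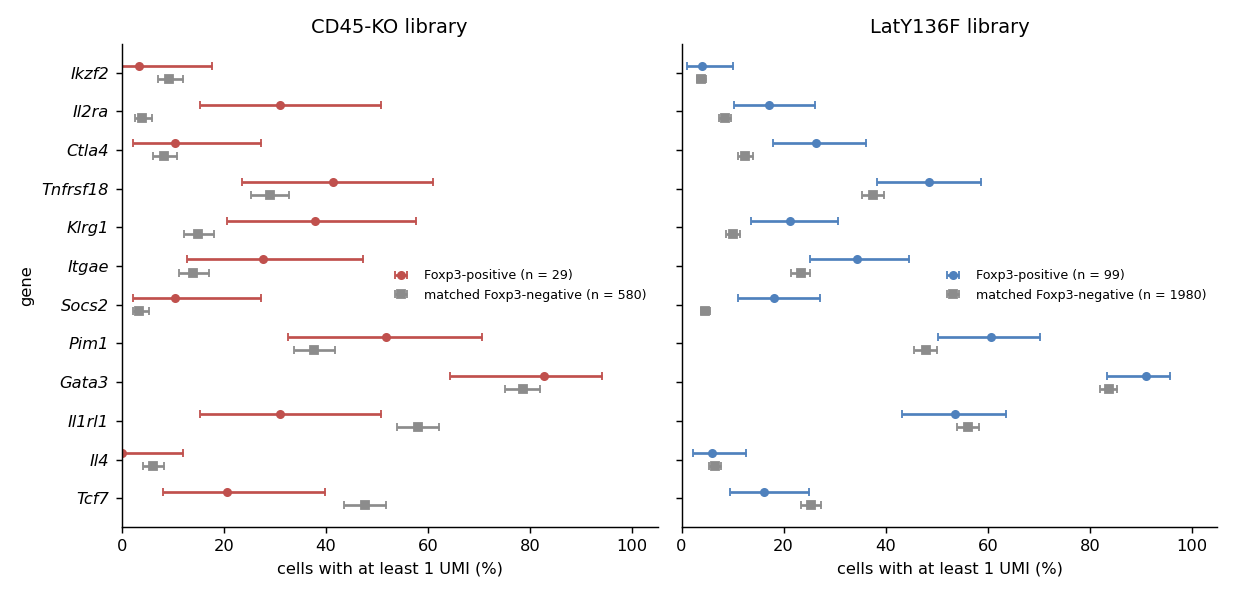
Share of cells (%) with at least 1 UMI of 12 genes, in Foxp3-positive cells (coloured circles) and depth-matched Foxp3-negative cells (grey squares) of each library, with exact 95% intervals of counting error. Il2ra and Klrg1 lie right of the matched cells in both libraries, Tcf7 lies left of them, and Ikzf2 shows no shift to the right.

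Markers were rarely found together. Of the 4 genes Ikzf2, Il2ra, Ctla4 and Tnfrsf18, 46 of 128 Foxp3-positive cells had 0, 52 had 1, 22 had 2, 8 had 3 and 0 had all 4. At least 2 were found in 23.4% of Foxp3-positive cells against 11.4% of matched cells. By library, this share was 20.7% against 8.45% in CD45-KO cells and 24.2% against 12.2% in LatY136F cells, Foxp3-positive first. The excess over matched cells was present in both libraries, and most Foxp3-positive cells had fewer than 2 of the 4.

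Several genes differed with the count of Foxp3 UMIs, a split that uses the counts that chose the cells and is given as a description. Among cells with 2 or more Foxp3 UMIs (59 cells, median 2030 total UMIs) and those with 1 (69 cells, median 2322), Socs2 was found in 28.8% and 5.80%, and Klrg1 in 35.6% and 15.9%. Tnfrsf18 was found in 59.3% and 36.2%, Tnfrsf4 in 50.8% and 30.4%, Ctla4 in 30.5% and 15.9%, Pim1 in 71.2% and 47.8%, and Il2ra in 25.4% and 15.9%. Tcf7, a factor of naive and memory T cells, ran the other way with 5.08% and 27.5%. The cells with more Foxp3 were not the deeper ones. Cells with 1 Foxp3 UMI were near matched cells for Tnfrsf18 (35.6% of matched cells), Socs2 (4.38%), Pim1 (45.5%) and Tcf7 (30.4%). They were above matched cells for Il2ra (7.42% of matched cells) and Klrg1 (11.1%), so they were not near matched cells for every gene. Gata3 was found in 93.2% and 85.5%, and Il1rl1 in 47.5% and 49.3%. For Gata3 the libraries differed, with 15 of 15 and 9 of 14 CD45-KO cells but 40 of 44 and 50 of 55 LatY136F cells. For Socs2, Klrg1, Tnfrsf18, Ctla4, Il2ra and Pim1 the order was the same in each library; for Klrg1 the shares were 9 of 15 and 2 of 14 CD45-KO cells, and 12 of 44 and 9 of 55 LatY136F cells.

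**Figure D3:**
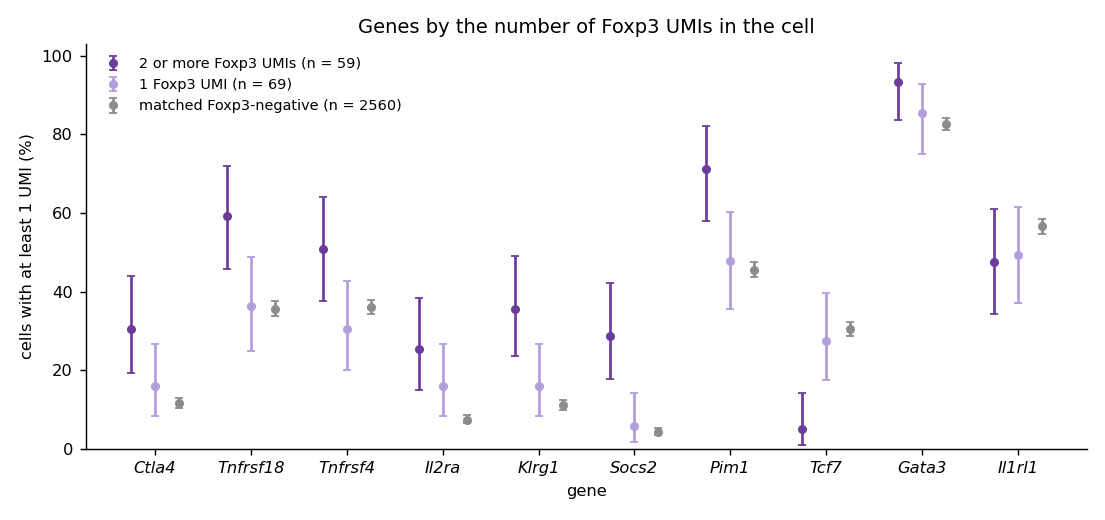
Share of cells (%) with at least 1 UMI of 10 genes, in cells with 2 or more Foxp3 UMIs, cells with 1 and matched Foxp3-negative cells, both libraries together, with exact 95% intervals of counting error. Socs2, Klrg1 and Tnfrsf18 are highest and Tcf7 lowest in cells with 2 or more Foxp3 UMIs, while Il1rl1 is at 47.5% and 49.3% in the cells with 2 or more and with 1.

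Across all genes, few were higher in Foxp3-positive cells. Of 5799 genes with at least 25 CPM over all kept cells, 19 (0.328%) were at least 2-fold higher with a higher CPM in each library, and 118 (2.03%) were at least 2-fold lower with a lower CPM in each library. For this direction a gene with 0 UMIs in the Foxp3-positive cells of a library counted as lower there, also where a floor of 3 counts would not be lower. The median log2 ratio over all 5799 was -0.00. Without the CD45-KO library the counts were 32 higher and without the LatY136F library 336 higher. For genes with a UMI in at least 10 Foxp3-positive cells, the genes described next were ranked by the interval bound nearest 0. Of the 15 highest, 8 (Mmp9, Neb, Socs2, Tab3, Urb1, Tesc, P4ha1 and Nbdy) lay under 25 CPM over all kept cells. These 8 entered through the Foxp3-positive cells, the group where they are high, so their place in the ranking is a description.

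Mmp9, a secreted gelatinase, was detected in 20.7% of CD45-KO Foxp3-positive cells against 2.93% of matched cells, and in 12.1% of LatY136F Foxp3-positive cells against 2.88% of matched cells, with a ratio of 2.47 (1.81 to 3.08). Neb, the giant filament protein nebulin of muscle, followed with 10.3% against 0.862% in CD45-KO cells and 19.2% against 5.40% in LatY136F cells, and a ratio of 2.21 (1.67 to 2.72). Both were found in a minority of the cells, 18 of 128 for Mmp9 and 22 of 128 for Neb. Socs2, a suppressor of cytokine signalling, was detected in 10.3% against 3.45% of CD45-KO cells and in 18.2% against 4.65% of LatY136F cells, with a ratio of 1.85 (1.24 to 2.42). Klrg1, a lectin-like inhibitory receptor, was detected in 11 of 29 against 87 of 580 CD45-KO cells (37.9% of the Foxp3-positive ones) and 21 of 99 against 198 of 1980 LatY136F cells (21.2%), with a ratio of 1.23 (0.81 to 1.62). Klrg1 was therefore found in more Foxp3-positive cells than Il2ra was, 32 against 26. Pim1, a survival kinase, had a ratio of 0.99 (0.79 to 1.17) and was found in 51.7% against 37.8% of CD45-KO cells and 60.6% against 47.8% of LatY136F cells. The others of the 15 highest were the interferon-induced gene Ifit1bl1 (1.44), Urb1 (1.64), P4ha1 (1.64), Nbdy (1.56), the TAK1 adaptor Tab3 (1.53), the calcium-binding protein gene Tesc (1.45), the ubiquitin ligase gene Ube3b (1.32), Dpagt1 of N-glycan synthesis (1.28) and Arl5a (1.05), besides Il2ra.

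**Figure D4:**
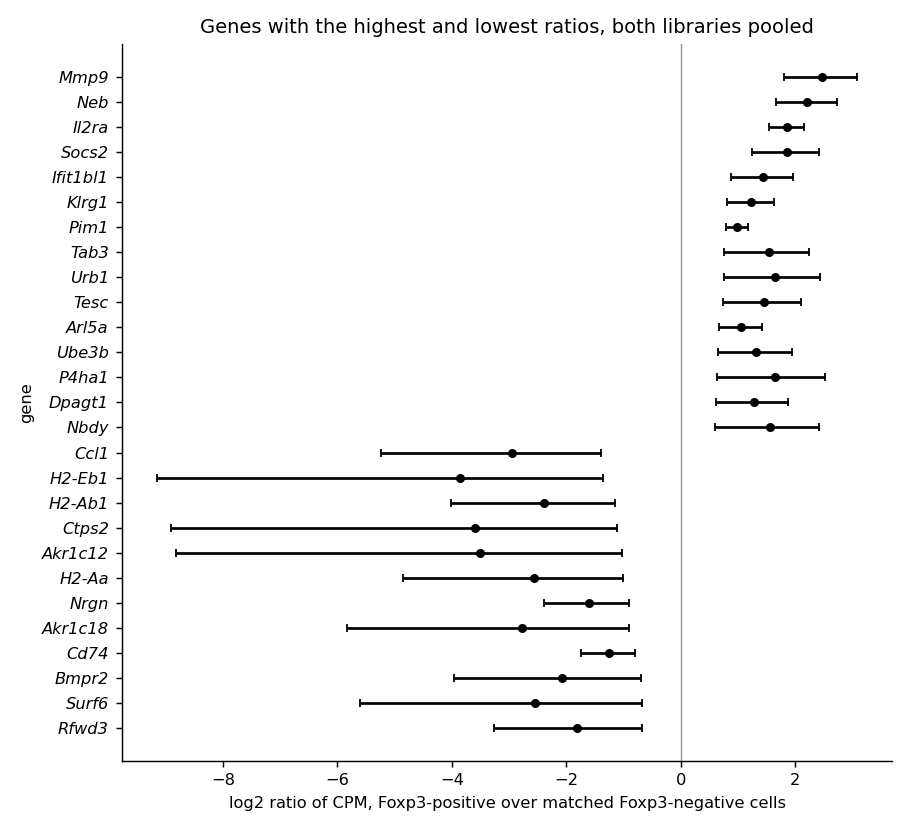
Log2 ratio of CPM, Foxp3-positive over matched Foxp3-negative cells, both libraries pooled, for the 15 highest genes and for 12 of the 15 lowest, leaving out 3 with no UMI in Foxp3-positive cells; bars are exact 95% intervals of counting error. Mmp9 and Neb lie above 2, and Ctps2 and Akr1c12 have wide intervals.

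Genes lower in Foxp3-positive cells included B cell and myeloid transcripts. Jchain, Slpi and Lyz2 had 0 UMIs in Foxp3-positive cells, and H2-Aa, H2-Ab1, H2-Eb1 and Cd74 of class II antigen presentation were low in CPM. In pooled matched cells, Jchain was found in 0.703%, Slpi in 0.742% and Lyz2 in 0.391%. Having 0 UMIs therefore does not show that Foxp3-positive cells lack these 3 transcripts. In pooled shares, Cd74 was found in 15.6% against 16.1%, and H2-Ab1 in 3.91% against 3.79%. H2-Aa was found in 1.56% against 1.80% and H2-Eb1 in 0.781% against 1.52%. Jchain, H2-Aa, H2-Ab1, H2-Eb1 and Cd74 are among the 17 B and plasma cell genes, Lyz2 is on the myeloid list and Slpi on neither. The summed level of the 17 genes was 283 CPM against 11428 CPM in the CD45-KO library, Foxp3-positive first. In the LatY136F library it was 295 CPM against 1215 CPM. These sums include the low genes themselves, so they do not show where the low ratios come from. The part of B and plasma cells among the matched cells in the ratios was not tested. Other low genes were also on neither list. Ctps2, a CTP synthase, was found in 0 of 29 CD45-KO cells against 6.72% of matched cells, and in 1 of 99 LatY136F cells against 8.99%. Akr1c12, an aldo-keto reductase, was found in 0 of 29 against 5.34% and in 1 of 99 against 8.13%. Bmpr2, a receptor for bone morphogenetic proteins, was found in 0 of 29 against 10.7% and in 4 of 99 against 10.1%. The others of the 15 lowest were Ccl1, Akr1c18, Surf6, Rfwd3 (-1.81) and Nrgn (-1.60). In pooled shares of cells, Surf6 was found in 1.56% against 7.89% and Rfwd3 in 4.69% against 12.1%. Ccl1 was found in 2.34% against 2.34%, Nrgn in 7.81% against 7.89% and Akr1c18 in 1.56% against 2.15%. For Ccl1, Nrgn, Cd74, H2-Ab1 and H2-Aa the lower CPM was thus a matter of UMIs per cell, not of the share of cells.

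Read by function, of 25 genes of regulatory T cell surface proteins, 2 (Il2ra and Klrg1) were at least 2-fold higher and 0 lower, with a median ratio of 0.26. Itgae, the integrin chain CD103, had a ratio of 0.91 (0.56 to 1.25) and was found in 27.6% against 14.0% of CD45-KO cells and 34.3% against 23.3% of LatY136F cells. Izumo1r, the folate receptor 4 gene, had 0.74 (0.40 to 1.07), with 31.0% against 18.6% and 27.3% against 21.3%. Pdcd1, which encodes the inhibitory receptor PD-1, had -0.70 (-1.93 to 0.30) from 8 UMIs. Of 20 transcription factors linked to regulatory T cells, 0 were 2-fold higher and 0 lower, with a median of 0.08. Among them Prdm1, the factor BLIMP-1, had 0.60 (-0.06 to 1.20), and Id2, an inhibitor of DNA binding, had -0.33 (-0.49 to -0.17). Of 15 effector and suppressor genes, 1 was 2-fold higher and 0 lower, with a median of 0.05. That gene was Penk, the precursor of enkephalins, with 70 UMIs in 6 cells of which 50 were in 1 cell. Gzmb, granzyme B, was found in 6.90% against 1.72% of CD45-KO cells and 22.2% against 13.2% of LatY136F cells, with 0.87 (0.48 to 1.23). Capg, an actin-capping protein gene, had 0.80 (0.32 to 1.25). Tgfb1, a suppressive cytokine, had -0.29 (-1.11 to 0.43), and Il10, another, was found in 3 of 128 cells.

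Of 13 genes of the interleukin-2 and STAT5 axis, 1 (Il2ra) was 2-fold higher and 0 lower, with a median of 0.22; Pim1, at 0.99, lay just under the 2-fold line, and Socs2 was under the level needed to be counted. Il2rb, the beta chain of the interleukin-2 receptor, had 0.48 (0.22 to 0.73) and was found in 44.8% against 29.5% of CD45-KO cells and 45.5% against 44.5% of LatY136F cells. Socs3 had 0.60 (0.09 to 1.07).

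A further question is whether the cells look like Th2-type cells. Gata3 was found in 82.8% of CD45-KO Foxp3-positive cells against 78.6% of matched cells, and in 90.9% of LatY136F Foxp3-positive cells against 83.7%, with a ratio of 0.15 (-0.01 to 0.30). Foxp3-positive cells thus shared the high Gata3 level of matched T cells, above the 48.3% of B-lineage cells. Il1rl1, the interleukin-33 receptor ST2, was found in 31.0% (15.3 to 50.8) against 58.1% of CD45-KO cells and in 53.5% against 56.1% of LatY136F cells, with a ratio of -0.23 (-0.48 to 0.01). The CD45-KO share of Il1rl1 lies below the 37.9% of B-lineage cells, which are deeper, and the LatY136F share lies above it. Il4 was found in 0 of 29 CD45-KO Foxp3-positive cells, which at 3 counts allows a share with a UMI of up to 10.3%, against 6.03% of matched cells, and in 6.06% of LatY136F Foxp3-positive cells against 6.46%. Il5 and Il13 were found in 0 of 128. Of 10 Th2 genes tested, 0 were 2-fold higher and 0 lower, with a median of 0.12. Ccr4, a chemokine receptor of Th2 and regulatory cells, had 0.57 (0.00 to 1.09). Among Foxp3-positive cells, Gata3 was found in 88.7% of the 62 cells with Il1rl1 and in 89.4% of the 66 without, at median depths of 2193.5 and 2212.5 UMIs. Itgae was found in 43.5% and 22.7% of the same cells, and Klrg1 in 32.3% and 18.2%. All 5 cells with an Ikzf2 UMI were among the 62 with Il1rl1.

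Defining factors and cytokines of other helper types were found in few cells. Of 12 follicular genes tested, 0 were 2-fold higher and 1, Sostdc1, was lower, with a median of 0.11. Cxcr5, the follicular homing receptor, was found in 1 of 128 cells and Bcl6, the follicular factor, in 5. Slamf6 had 0.68 (0.34 to 1.00), with 41.4% against 20.9% in CD45-KO cells and 41.4% against 28.1% in LatY136F cells. Tbx21 and Ifng of T helper 1 cells were each found in 1 cell. Of the Th1 and cytotoxic list 5 genes could be tested, and 0 passed 2-fold in either direction; the same held for 3 of the T helper 17 list. Among 13 naive and quiescent genes, 0 were 2-fold higher and 1, Tcf7, was lower, with a median of 0.04. Tcf7 was found in 20.7% of CD45-KO Foxp3-positive cells against 47.6% of matched cells and in 16.2% of LatY136F Foxp3-positive cells against 25.3%, with a ratio of -1.12 (-1.67 to -0.62). Ccr7, a lymph node homing receptor, was found in 0 of 29 CD45-KO and 3.03% of LatY136F Foxp3-positive cells.

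Of 22 interferon genes, 2 (Ifit1 and Ifit1bl1) were 2-fold higher and 0 lower, with a median of 0.19. Ifit1 was found in 7 cells. Ifit1bl1 had 33 UMIs in 14 cells, of which 10 were in 1 LatY136F cell and 8 in another. Its ratio within the CD45-KO library was 0.63 (-1.04 to 1.93). Of 20 cell cycle genes, 0 passed in either direction, with a median of 0.08; Mki67, a proliferation marker, was found in 17.2% against 10.3% of CD45-KO cells and 24.2% against 19.7% of LatY136F cells. For 20 early genes of receptor signalling (median -0.05), 25 signalling genes around LAT and CD45 (median 0.11), 9 inhibitory receptors and related genes (median 0.02), 9 heat shock genes (median -0.08) and 12 T cell genes (median 0.02), 0 passed 2-fold in either direction.

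The cells with Il2ra differed from the other Foxp3-positive cells. The 26 cells with Il2ra were deeper (median 3436 UMIs) than the 102 without (median 2001.5), and the part of depth in the following shares was not tested. Mki67 was found in 42.3% of cells with Il2ra and 17.6% of those without, Izumo1r in 53.8% and 21.6%, Capg in 53.8% and 13.7%, and Ctla4 in 34.6% and 19.6%. Scaled to total UMIs, Mki67 was at 950.3 CPM in cells with Il2ra and 300.02 CPM in those without, and Capg at 211 and 63.4 CPM. Izumo1r, at 234 and 219.7 CPM, and Ctla4, at 113 and 97.2 CPM, were close on this scale. Gzmb was the other way, in 7.69% and 21.6% of cells and at 30.2 and 266 CPM. Klrg1 was found in 23.1% and 25.5% of cells and was at 45.3 and 224 CPM. These CPM come from summed UMIs, so each cell counts by its depth. Of the 126 Mki67 UMIs in cells with Il2ra, 44 were in 1 cell with 15904 UMIs in total. In the same cells Klrg1 had 6 UMIs in 6 cells and Gzmb 4 UMIs in 2 cells. The part of the deepest cells in these levels was not tested. Klrg1 and Gzmb were often found together, in a split chosen after the values were seen: Gzmb was in 34.4% of the 32 Klrg1-positive cells and in 13.5% of the 96 others. Among matched cells, Gzmb was found in 14.0% with Klrg1 and 10.2% without.

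To set the cells beside the most similar groups, all cells were thinned to 1000 UMIs, which left 26 CD45-KO and 95 LatY136F Foxp3-positive cells. Il4-positive, Il2ra-positive and Ikzf2-positive cells, all Foxp3-negative, were thinned likewise. Tnfrsf18 was found in 34.6% of CD45-KO and 28.4% of LatY136F Foxp3-positive cells, against 14.0% and 18.8% of Il4-positive cells and 19.6% and 23.7% of Il2ra-positive cells. Klrg1 was found in 19.2% and 17.9% of Foxp3-positive cells, against 10.7% and 6.27% of Il4-positive cells. Itgae was found in 23.1% and 18.9%, against 7.24% and 8.73% of Il4-positive cells and 5.72% and 7.18% of Il2ra-positive cells. For these 3 genes Foxp3-positive cells had the highest share of the compared groups in each library, a difference that was not tested. Pdcd1 was found in 0 and 1.05% of Foxp3-positive cells, against 10.1% and 7.50% of Il4-positive cells, 4.90% and 2.69% of Il2ra-positive cells and 0.914% and 1.48% of the other Foxp3-negative cells. Tcf7 was found in 15.4% and 5.26%, against 33.7% and 15.9% of Il4-positive cells and 14.2% and 4.94% of Il2ra-positive cells. Mki67 was found in 7.69% and 13.7% of Foxp3-positive cells, against 7.72% and 13.3% of Il4-positive cells and 16.1% and 21.4% of Il2ra-positive cells. Gata3 was found in 46.2% and 63.2% of Foxp3-positive cells, against 55.6% and 57.7% of Il4-positive cells.

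**Figure D5:**
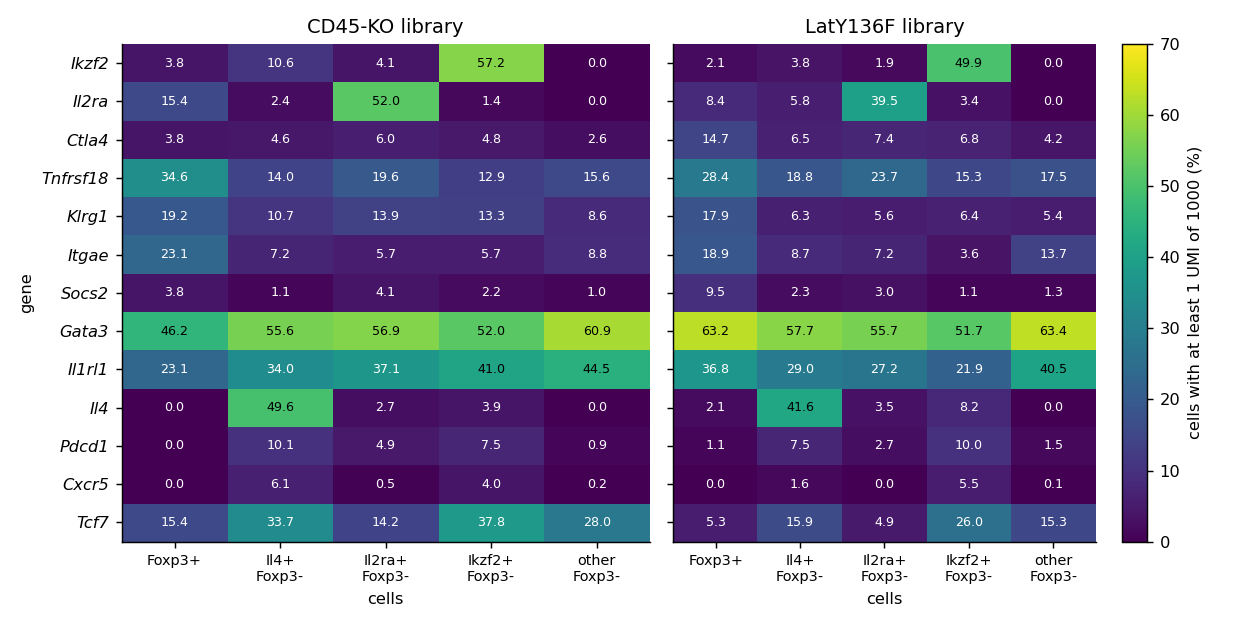
Share of cells (%) with at least 1 UMI of 13 genes after thinning to 1000 UMIs, for Foxp3-positive cells, Il4-positive, Il2ra-positive and Ikzf2-positive Foxp3-negative cells and other Foxp3-negative cells of each library. The genes that define a group are high in it by construction; Tnfrsf18, Klrg1 and Itgae are highest in Foxp3-positive cells.

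Between genotypes, the Foxp3-positive cells were compared over 5197 genes, of which 323 (6.22%) were at least 2-fold higher and 674 (13.0%) at least 2-fold lower in CD45-KO cells. The CD45-KO group holds 29 cells, and the named genes are described beside matched cells. Ptprc, the targeted gene, was at 1106 CPM in CD45-KO Foxp3-positive cells and 2088 CPM in LatY136F Foxp3-positive cells, and at 946 and 1649 CPM in matched cells. Ptprc RNA was thus still read in CD45-KO cells; the deleted exons are not named here, so this level does not check the genotype. Lat was at 256 and 356 CPM in CD45-KO and LatY136F Foxp3-positive cells, and at 336 and 414 CPM in matched cells. Csf1, a growth factor for macrophages, was found in 89.7% of CD45-KO and 60.6% of LatY136F Foxp3-positive cells, a log2 ratio of 1.12 (0.75 to 1.49), against 59.0% and 64.4% of matched cells. Itga4, an integrin chain, had a ratio of 1.57 (1.11 to 2.02) in Foxp3-positive and 1.13 (1.02 to 1.25) in matched cells, so it was higher in CD45-KO cells of both kinds. Sec14l1 (2.10), Cmpk2 (2.28), Tada1 (2.31), Tlk2 (1.99), Znrf2 (1.82) and Hltf (2.14) were the other highest. In matched cells their ratios, in the same order, were -0.34, -0.33, -0.01, 0.26, 0.63 and 0.31. The Cmpk2 ratio came from 11 UMIs in 3 CD45-KO cells, and its shares were 10.3% of CD45-KO and 9.09% of LatY136F Foxp3-positive cells.

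Among genes lower in CD45-KO Foxp3-positive cells, Slfn5, a member of the Schlafen family, was found in 6.90% of CD45-KO and 18.2% of LatY136F cells, a ratio of -2.76 (-5.84 to -0.84), with -0.04 in matched cells. Tnfaip8 was found in 17.2% and 45.5%, a ratio of -1.91 (-3.40 to -0.74), with -0.44 in matched cells. Jpt1 was found in 0 of 29 CD45-KO and 23 of 99 LatY136F cells, Slc16a6 in 0 and 21, and Rala in 0 and 20. Eid1 was found in 1 and 25, and Gtpbp1 in 1 and 31. Ratios in matched cells were -0.40 for Jpt1, -0.34 for Slc16a6, -0.15 for Rala, -0.37 for Eid1 and 0.04 for Gtpbp1. The difference between the ratios of Foxp3-positive cells and those of matched cells was not tested. For the 4 markers, values by library stand above: Il2ra was at 270 CPM in CD45-KO and 278 CPM in LatY136F Foxp3-positive cells, and Ctla4 at 67.4 and 112 CPM. Of 25 signalling genes around LAT and CD45, 1 was 2-fold higher and 2 lower in CD45-KO Foxp3-positive cells, with a median of -0.33, and in matched cells their median was -0.05.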

How the data were processed

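Live CD3+CD5+ spleen cells were captured with BD Rhapsody, 1 library per genotype. The deposited files hold UMI counts per cell and gene, made with the BD WTA Multiplex Rhapsody Analysis Pipeline 1.9.1, GRCm38 and GENCODE M19, per the file headers. The series' design text names pipeline 2.0 and the submitters' processing notes name GRCm39; the headers were followed. Gene locations come from GENCODE M21 (GRCm38), promoters from RefSeq (GRCm38.p6). Of 22686 genes in either file, 18318 were in both, and an absent gene was given a count of 0. The files held 12845 CD45-KO and 13775 LatY136F cells, with 29268453 and 35300371 UMIs.

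Cell filters, matching and intervals are described with the results (Python 3.11.15, numpy 2.4.6, scipy 1.17.1, pandas 2.3.3, matplotlib 3.10.9). Counts were summed over cells and scaled to CPM. For ratios, groups with 0 counts were given 3 counts over the group as a floor, and no ratio was formed where both groups had 3 or fewer. No test was run, since cells of 1 library are not replicates. No doublet caller was run, and doublets were kept. Coverage of the ratio intervals was checked only on simulated counts drawn independently, as the interval assumes. Those counts have no spread between cells, so the check does not cover genes whose UMIs lie in few cells. Genes were named by rule. They were the markers, and up to 6 members of each list with the largest ratio, plus its defining members. The 15 highest and 15 lowest by the bound nearest 0 were also named. That ranking left out antigen receptor, mitochondrial, ribosomal, haemoglobin, X-inactivation and Y-linked genes, and genes without a symbol. Other X-linked genes were kept. The 8 highest and 8 lowest between genotypes, Ptprc and Lat completed the rule. Tnfrsf4, Il10, Ccdc22 and the B, myeloid and natural killer genes listed at 0 were chosen after their values were seen. Some genes that the rule names are not reported here. The members and gene lists were chosen with earlier results of these data known.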

Additional observations from a re-analysis of the deposited data

Results flagged for a closer look

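Kif23, a kinesin of cell division, ran in opposite directions in the 2 libraries. The log2 ratio of Foxp3-positive over matched cells was 1.92 (0.62 to 3.03) in the CD45-KO library, from 8 UMIs in 2 cells, and -1.16 (-2.12 to -0.34) in the LatY136F library, from 12 UMIs in 8 cells. The difference between the libraries was not tested.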

How the results depend on the processing

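The CD45-KO share of Foxp3-positive cells was 0.226%, and became 0.136% with thinning to 1000 UMIs and 0.117% with at least 2 Foxp3 UMIs; the LatY136F share was 0.720%, and became 0.458% and 0.320%. The Il2ra ratio of 1.85 was 2.75 with no matching, 2.35 with thinning, 2.48 with cells weighted equally, 2.37 without cells carrying B, plasma or myeloid markers, 2.41 without the top 2% of cells by UMIs, 3.53 with at least 2 Foxp3 UMIs, 2.35 without the LatY136F library and 1.31 without the cell with the most Il2ra UMIs. The Ctla4 ratio of 0.84 was 1.46 with 5 matched cells per Foxp3-positive cell, 1.46 with thinning and 1.58 with at least 2 Foxp3 UMIs. The Tnfrsf18 ratio of 0.56 was 0.90 with thinning and 0.99 with at least 2 Foxp3 UMIs, and the Ikzf2 ratio of -0.69 was 0.51 with at least 2 Foxp3 UMIs. The 19 genes at least 2-fold higher became 35 with 5 matched cells, 45 with no matching, 103 with thinning, 42 with cells weighted equally, 117 with at least 2 Foxp3 UMIs, 32 without the CD45-KO library and 336 without the LatY136F library. The 118 genes at least 2-fold lower became 399 with thinning, 374 with at least 2 Foxp3 UMIs and 666 without the LatY136F library. The median of the surface list ran from 0.19 to 0.38 and that of the Th2 list from -0.08 to 0.16 over 15 alternatives each. The alternatives without the cell with the most Il2ra UMIs and without cells whose index is in both files were chosen after seeing the data. The cause of these shifts was not tested. No paired analysis was possible because each genotype has 1 library. With 29 CD45-KO cells, a gene with 0 UMIs in them may have a UMI in up to 10.3% of such cells at 3 counts. No interval covers differences between mice or captures, and those for ratios also leave out the spread between cells.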
